A study of Drosophila melanogaster with 13 samples.

Results

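The antimicrobial peptide genes DptA, DptB, AttA, AttC, AttD, Drs, Mtk, Def, CecA1 and CecC were followed in RNA-seq libraries of whole male first instar larvae of Drosophila melanogaster. These 10 genes are effectors of the Toll and Imd pathways chosen by their FlyBase symbols, and all 10 were found among the 17476 gene identifiers of the count files. The 13 libraries came from 4 genotypes: wildtype (3 libraries, replicates 1, 3 and 4), the roX1 mutant with the allele roX1[ex6] (4 libraries, replicates 1 to 4), the roX2 mutant with the allele roX2[9-4] (3 libraries, replicates 2 to 4) and the roX1 roX2 mutant, or double mutant, with both alleles (3 libraries, replicates 2 to 4). All carried y[1]. Wildtype, the roX1 mutant and the double mutant also carried w[1118], and the roX2 mutant carried cho[2] as well as v[1]. For the double mutant v[1] is listed in the methods but not in the sample labels. The larvae of a library were pooled without GFP, and their fathers carried the same FM7i balancer with a GFP transgene in every cross. The mothers of the double mutant also carried that balancer, and each mutant rests on 1 allele of each roX gene. The genotypes differ in other markers and are not isogenic, so an effect of a roX allele and one of the strain it came in cannot be told apart.

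In flies, bacteria and fungi in the body cavity are met by small secreted peptides that are made mostly by the fat body and also by blood cells and by epithelia such as the gut. The Imd pathway senses peptidoglycan of most Gram-negative bacteria through receptors of the PGRP family and ends in the NF-kappaB factor Relish (Rel). The Toll pathway senses fungi and many Gram-positive bacteria through a protease cascade that cuts the ligand Spätzle (spz) and ends in the NF-kappaB factors Dif and Dorsal. Diptericins (DptA, DptB), attacins (AttA, AttC, AttD) and cecropins (CecA1, CecC) are mainly Imd targets, Drosomycin (Drs) is the standard Toll readout in the fat body, and Metchnikowin (Mtk) and Defensin (Def) respond to both pathways. roX1 and roX2 are the non-coding RNAs of the complex that raises transcription of the male X chromosome, and all 10 peptide genes lie on autosomes.

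In the BDGP6.54 annotation, DptA (FBgn0004240) lies on 2R from 18865765 to 18866260 and DptB (FBgn0034407) from 18867391 to 18867895, 1130 bp after it on the same strand. AttA (FBgn0012042) lies on 2R from 14747362 to 14748215, 1007 bp before AttB, and AttC (FBgn0041579) on 2R from 13393705 to 13394667. AttD (FBgn0038530) lies on 3R from 17625268 to 17626086. CecA1 (FBgn0000276, 30210874 to 30211273) and CecC (FBgn0000279, 30216484 to 30216938) belong to a cecropin cluster on 3R and are 5210 bp apart, with CecA2 and CecB between them. Drs (FBgn0283461) lies on 3L from 3369556 to 3369942, Mtk (FBgn0014865) on 2R from 15408846 to 15409113, and Def (FBgn0010385) on the minus strand of 2R from 10054178 to 10054576. Mtk and Def lie within Stacl and magu but share no exon base with them. An exon of DptB shares 48 bases with CG43109 and one of AttC shares 53 bases with CG4744, both on the opposite strand, and without strand information those reads cannot be assigned to either gene. AttA and AttB, and CecA1 and CecA2, are near-identical copies, so their separate counts are uncertain.

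Between 45620194 and 83954893 counts fell on genes in a library. The roX1 RNA fell by 8.88 on the log2 scale in the roX1 mutant and by 8.57 in the roX1 roX2 mutant, and the roX2 RNA fell by 10.11 in the roX2 mutant and by 10.13 in the roX1 roX2 mutant, as the genotypes require. The first principal component of the major autosome genes (46.0% of the variance) set 4 libraries apart from the other 9: roX2 mutant replicate 4, wildtype replicate 1 and the first and second roX1 mutant replicates, in which Osiris and Tweedle genes of the moult were high. The marker genes of fat body (9 genes), blood cells (10 genes) and midgut (10 genes) had counts in every genotype, except Lsp2 in the roX1 mutant and Fbp1 in the roX2 mutant.

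The peptide genes were expressed at low levels, and their levels differed most between single libraries. Summed over the 10 genes, the level was 6.79, 6.34 and 9.09 CPM (counts per 1000000 counts of a library, TMM-normalized) in the wildtype libraries (replicates 1, 3 and 4). It was 11.2, 0.619, 1.34 and 63.7 CPM in roX1 mutant replicates 1 to 4, 2.89, 2.08 and 2.88 CPM in the roX2 mutant (replicates 2 to 4), and 1.24, 1.52 and 0.842 CPM in the roX1 roX2 mutant (replicates 2 to 4). The 3 double mutant libraries thus lay below the wildtype and roX2 mutant libraries, while the roX1 mutant held both the lowest and the highest sum of all. roX1 mutant replicate 4 had the highest level of 8 of the 10 genes among the 13 libraries, against 4.92% of all genes tested that were highest there. Counts of 0 were found in 4 of 40 values in the roX1 mutant, 3 of 30 in the roX2 mutant, 5 of 30 in the roX1 roX2 mutant and 0 of 30 in wildtype. A count of 0 allows a level of up to 0.0306 to 0.0679 CPM, depending on the library (3 counts, counting error only).

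**Figure D1:**
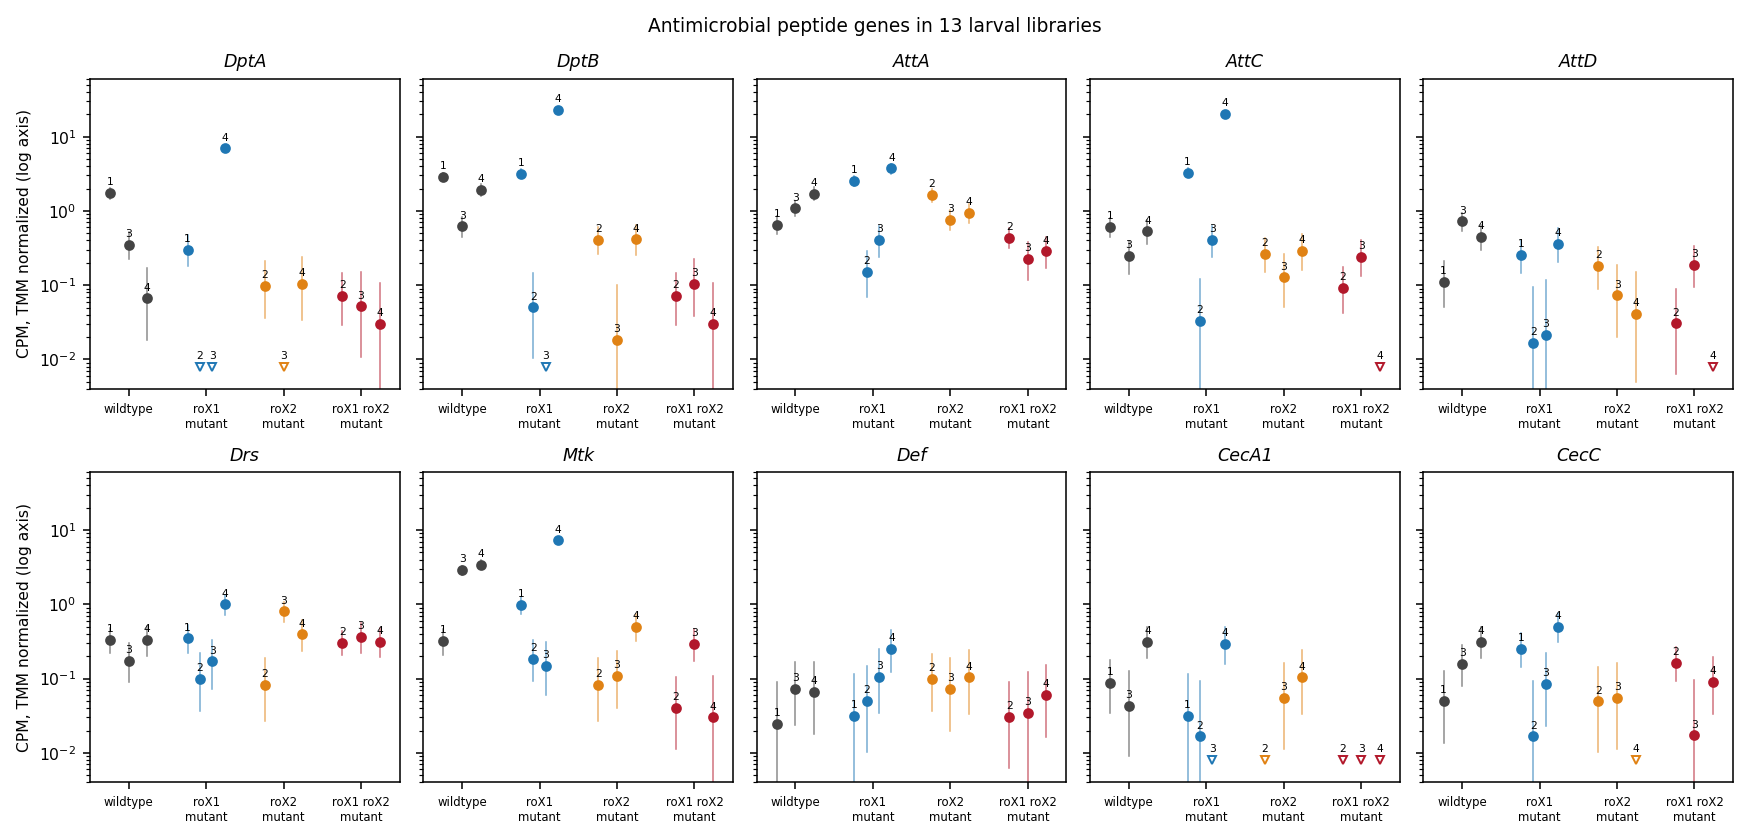
Levels of the 10 antimicrobial peptide genes by genotype, in TMM-normalized CPM on a log axis. Each point is 1 library with its replicate number, bars are exact 95% Poisson intervals of the count (cut at the lower edge of the axis), and open triangles at the bottom are libraries without a count. roX1 mutant replicate 4 lies highest for 8 of the genes, with 23.1 CPM for DptB, and the roX1 roX2 mutant has no count of CecA1.

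Per exon length, over the 13 libraries, the mean levels ran from 0.320 TPM (transcripts of 1000000, from counts per exon base) for Def to 9.20 TPM for DptB and 7.86 TPM for Mtk, against a median of 10.8 TPM over the genes tested. roX1 mutant replicate 4 had 84.7 TPM of DptB, and without it the mean was 2.91 TPM for DptB and 4.81 TPM for Mtk. In wildtype the order began with Mtk (14.4 ± 10.8 TPM, SD, n = 3), DptB (6.72 ± 3.97 TPM), AttA (2.51 ± 1.13 TPM) and DptA (2.44 ± 2.96 TPM) and ended with Def (0.239 ± 0.121 TPM). In the roX1 mutant DptB (24.0 ± 40.8 TPM, SD, n = 4) was above Mtk (13.04 ± 21.1 TPM) and AttC (10.9 ± 17.7 TPM). AttA led in the roX2 mutant (2.10 ± 0.478 TPM, SD, n = 3) and Drs in the roX1 roX2 mutant (1.69 ± 0.266 TPM, SD, n = 3). Neighbours in these orders differed by less than the larger of their SDs in each genotype, except DptB and AttA in wildtype and Def and CecA1 in the roX1 roX2 mutant.

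Among the Imd targets, DptB, a diptericin active against Gram-negative bacteria, had 2.85, 0.621 and 1.90 CPM in wildtype replicates 1, 3 and 4. In roX1 mutant replicates 1 to 4 it had 3.18, 0.0501, 0 and 23.1 CPM, which are 201, 3, 0 and 1020 counts. In the roX2 mutant it had 0.410, 0.0182 and 0.415 CPM, and in the roX1 roX2 mutant 0.0713, 0.103 and 0.0301 CPM. All roX2 mutant and all double mutant libraries lay below the wildtype libraries, and the roX1 mutant libraries lay on both sides of them. Its tandem neighbour DptA had 1.75, 0.347 and 0.0662 CPM in wildtype and 0.300, 0, 0 and 6.94 CPM in the roX1 mutant. DptA had 0.0985, 0 and 0.104 CPM in the roX2 mutant and 0.0713, 0.0517 and 0.0301 CPM in the roX1 roX2 mutant. The wildtype libraries of DptA spread from the level of the mutants to 1.75 CPM in replicate 1.

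AttC, an attacin, was the gene with the second-highest single value. Its levels were 0.607, 0.246 and 0.530 CPM in wildtype, 3.27, 0.0334, 0.404 and 20.3 CPM in roX1 mutant replicates 1 to 4, 0.263, 0.128 and 0.290 CPM in the roX2 mutant, and 0.0917, 0.241 and 0 CPM in the roX1 roX2 mutant. The lowest wildtype and the highest double mutant library are 0.246 and 0.241 CPM, so these groups are separate by less than the counting error. AttA, the most evenly expressed of the attacins, had 0.656, 1.08 and 1.71 CPM in wildtype, 2.53, 0.150, 0.404 and 3.73 CPM in the roX1 mutant, 1.62, 0.766 and 0.933 CPM in the roX2 mutant, and 0.438, 0.224 and 0.286 CPM in the roX1 roX2 mutant. The double mutant libraries of AttA were below all wildtype and all roX2 mutant libraries. AttD, an attacin that lacks a secretion signal, ranged from 0.111 to 0.722 CPM in wildtype, 0.0167 to 0.362 CPM in the roX1 mutant, 0.0415 to 0.181 CPM in the roX2 mutant and 0 to 0.189 CPM in the roX1 roX2 mutant.

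The cecropins, helical peptides that break bacterial membranes, were near the limit of counting. CecA1 had 7, 3 and 19 counts in wildtype and 2, 1, 0 and 13 counts in the roX1 mutant. It had 0, 3 and 5 counts in the roX2 mutant and none in the 3 libraries of the roX1 roX2 mutant. Against a floor of 3 counts over the double mutant group (0.0135 CPM), the wildtype mean of 0.148 CPM makes CecA1 at least 11.004-fold higher in wildtype. Wildtype replicate 4 holds 19 of these counts, and without it the bound is 4.83-fold. CecC ranged from 0.0495 to 0.315 CPM in wildtype, 0.0167 to 0.498 CPM in the roX1 mutant, 0 to 0.0547 CPM in the roX2 mutant and 0.0172 to 0.163 CPM in the roX1 roX2 mutant.

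Mtk, a proline-rich peptide active against fungi and Gram-positive bacteria, had 0.322, 2.88 and 3.41 CPM in wildtype replicates 1, 3 and 4, the reverse of the order of DptA. It had 0.980, 0.184, 0.149 and 7.24 CPM in the roX1 mutant, 0.0821, 0.109 and 0.498 CPM in the roX2 mutant and 0.0408, 0.293 and 0.0301 CPM in the roX1 roX2 mutant. The highest double mutant library was just below the lowest wildtype library. Drs, an antifungal peptide, had 0.334, 0.173 and 0.331 CPM in wildtype and 0.306, 0.362 and 0.316 CPM in the roX1 roX2 mutant, with overlapping groups. Its highest levels were 0.995 CPM in roX1 mutant replicate 4 and 0.803 CPM in roX2 mutant replicate 3. Def, active mainly against Gram-positive bacteria, had at most 11 counts in a library, in roX1 mutant replicate 4, and ranged from 0.0248 to 0.0722 CPM in wildtype.

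None of the 10 genes passed the test in a mutant against wildtype. This comparison asks whether loss of roX1, of roX2 or of both is accompanied by another level of these peptides. In edgeR's quasi-likelihood test with Benjamini-Hochberg adjustment over the 13975 genes tested, 0 of 10 were called in the roX1 mutant (background 1.32% of all genes), 0 of 10 in the roX2 mutant (background 0.351%) and 0 of 10 in the roX1 roX2 mutant (background 9.08%). At an unadjusted p under 0.05 there were 1, 0 and 3 genes, and DESeq2 called 0, 0 and 1. The shares of all genes at that unadjusted threshold and with DESeq2 are not given here, so these counts stand without a background. The p-values measure the spread between libraries, each a separate pool of larvae.

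With both roX RNAs lost, the estimates of 9 of the 10 genes were below 0, with a median log2 fold change of -2.33 against -0.02 over all genes tested. The 3 with an unadjusted p under 0.05 were DptB (log2 fold change -4.69, standard error 2.05, adjusted p = 0.183), Mtk (-4.23, standard error 1.60, adjusted p = 0.125) and CecA1 (adjusted p = 0.106). DptA had -3.74 (standard error 2.09, adjusted p = 0.296), AttD -2.58 (1.27), AttC -2.08 (1.64), AttA -1.84 (0.92), CecC -0.87 (1.09), Def -0.36 (0.77) and Drs 0.22 (0.82). In 5 of the 10 genes (DptB, AttA, AttC, Mtk and CecA1) every double mutant library was below every wildtype library, against a background of 18.7% of all genes. On the TPM scale there were 3 such genes, since AttC and Mtk then overlapped. Mtk was called by DESeq2 (1 gene) and in a fit of the 9 libraries on the low side of the first component (1 gene), and AttA and DptB were called in a fit of these 2 genotypes alone (2 genes). The low side lacks wildtype replicate 1, which had the lowest wildtype level of Mtk (0.322 CPM, against 2.88 and 3.41 CPM). The shares of all genes called under these alternatives are not given here.

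The summed level of 9 fat body markers was 6421 to 7541 CPM in wildtype and 3599 to 6109 CPM in the roX1 roX2 mutant, and thus lower in each double mutant library. None of these markers was without counts in all libraries of either genotype. Blood cell markers (10 genes) summed to 749 to 1436 CPM in wildtype and 627 to 956 CPM in the double mutant. The part of these tissues in the peptide levels was not tested, and in whole larvae fewer cells of a type and less RNA per cell cannot be told apart.

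In the roX2 mutant 8 of 10 estimates were below 0, with a median log2 fold change of -1.77 against 0.01 over all genes tested. The lowest were DptA (-3.39, standard error 2.09, adjusted p = 0.615), Mtk (-3.27, standard error 1.52, adjusted p = 0.473), DptB (-2.67, standard error 1.81) and CecC (-2.21, standard error 1.22). DptB was below wildtype in every roX2 mutant library (background 5.65% of all genes) and Def was above it in every library (background 5.72%), at 4 to 6 counts. AttA had an estimate of -0.05 (standard error 0.88). Fat body markers summed to 3744 to 7331 CPM and blood cell markers to 486 to 1440 CPM in this mutant, with the highest value of both in replicate 4.

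With roX1 lost alone, 7 of 10 estimates were above 0, and 5 of these 7 were below 0 without replicate 4. AttC had the highest estimate, 3.69 (standard error 1.54, unadjusted p = 0.0348, adjusted p = 0.260), followed by DptB (1.87, standard error 1.61) and DptA (1.31, standard error 1.67). AttD had -1.38 (standard error 1.10). For 0 of 10 genes did all roX1 mutant libraries lie below wildtype (background 7.61% of all genes) or all above it (background 8.57%). Without replicate 4, 2 of 10 estimates were above 0 (AttC and Def) and the median changed from 0.54 to -0.62, while it was 0.37 to 0.90 with any other library left out. CecC was also below 0 without wildtype replicate 1 (-0.16), and DptA with the replicate number as a block (-0.45). In the fit without roX1 mutant replicate 4, AttC was at 1.42 (standard error 1.21), DptB at -0.72 (1.39), DptA at -2.78 (1.45), CecA1 at -2.96 (1.29) and Mtk at -2.31 (1.10). The adjusted p-values of that fit were 0.327 or more for all 10 genes.

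**Figure D2:**
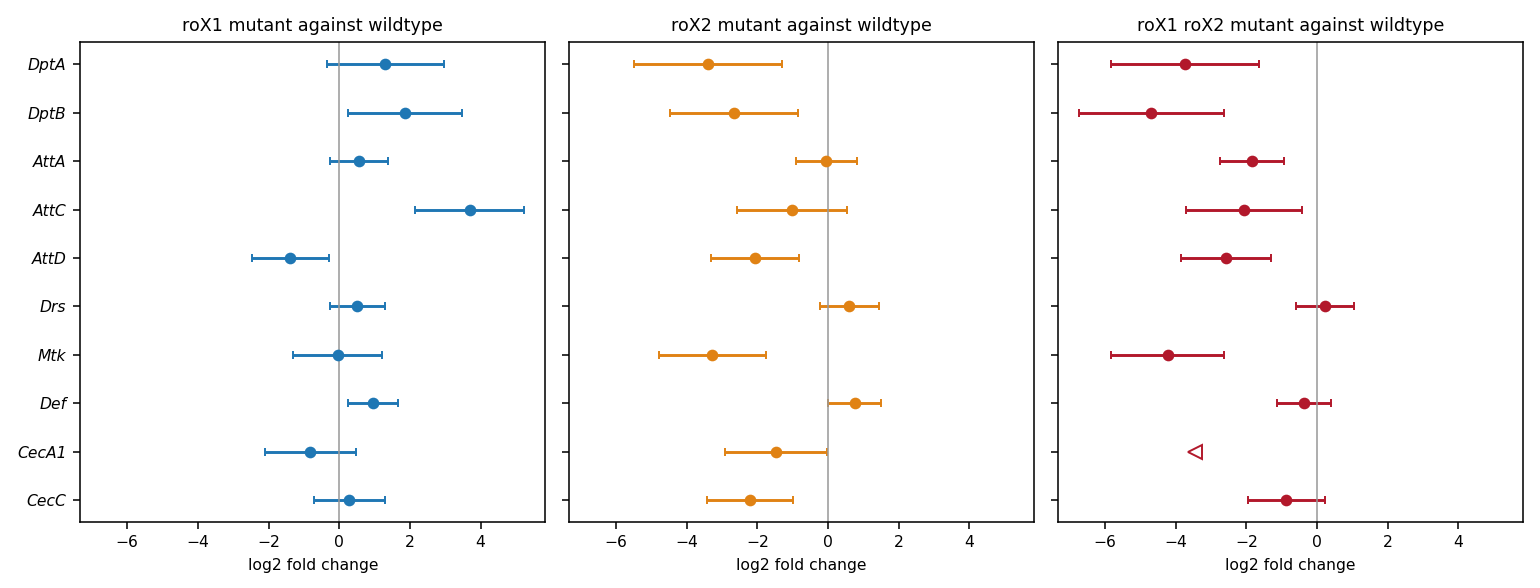
Log2 fold changes of the 10 genes in each mutant against wildtype (x axis), with points at the edgeR estimate and bars of 1 standard error. The open triangle is the bound of CecA1 in the roX1 roX2 mutant, which has no count of it (-3.46). In the roX1 roX2 mutant 9 of 10 genes lie below 0 and in the roX1 mutant 7 of 10 lie above it, and none passes the adjusted threshold.

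Between the mutants, AttC was the only gene called. For the roX1 roX2 mutant against the roX1 mutant, all 10 estimates were below 0 (median -3.30), 6 had an unadjusted p under 0.05, and 1 of 10 was called against a background of 18.0% of all genes. AttC fell by 5.77 on the log2 scale (standard error 1.77, adjusted p = 0.0437), although roX1 mutant replicate 2 lay among the double mutant libraries. Without roX1 mutant replicate 4 the median was -1.33, 9 of 10 estimates were below 0 and 0 of 10 were called, with AttC at -3.50 (adjusted p = 0.105) and DptA at -0.97 (standard error 1.55). The call of AttC was also lost in a fit of these 2 genotypes alone (-5.74, adjusted p = 0.0863), and it was lost on leaving out any of 9 of the 13 libraries. DESeq2 called 6 of the 10 genes in this comparison, and the fit of the 9 low-side libraries called 5. Of the roX1 mutant, the low side holds only replicates 3 and 4. The backgrounds given for comparisons between mutants are adjusted calls of the edgeR fit of all 13 libraries. Shares of all genes for DESeq2, the low side and the unadjusted threshold are not given here. Fat body markers summed to 6369 to 9780 CPM in the roX1 mutant and 3599 to 6109 CPM in the double mutant, and blood cell markers to 1071 to 1630 CPM and 627 to 956 CPM, so neither sum overlapped between the genotypes. Their part in the peptide levels was not tested. In the roX1 roX2 mutant against the roX2 mutant, 0 of 10 were called (background 7.67%) and the median estimate was -1.01, which became -0.50 without double mutant replicate 4 and -1.86 without replicate 3. In the roX2 mutant against the roX1 mutant, 0 of 10 were called (background 2.28%), 3 had an unadjusted p under 0.05, and DESeq2 called AttC alone. The median of that comparison was -1.59, and -0.30 without roX1 mutant replicate 4.

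Whether the effect of both losses departs from the sum of the single effects was tested as an interaction on the log2 scale. None of the 10 genes passed this test (background 3.01% of all genes), none had an unadjusted p under 0.05, and DESeq2 called none. The estimates had a median of -1.86, against -0.06 over all genes tested, and ran from -4.75 for AttC (standard error 2.25, adjusted p = 0.239) to 1.05 for CecC (standard error 1.56).

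The spread of the peptide genes between libraries of one genotype was larger than that of most genes. The pooled SD of log2 CPM (prior count of 2) within genotypes had a median of 1.30 over the 10 genes and of 0.327 over all genes tested. It was 2.77 for DptB, 2.42 for DptA and 2.23 for AttC, higher than in 98.9%, 98.6% and 98.5% of all genes tested, and 0.615 for Def, higher than in 73.8%. Low counts add to this spread, but for DptB the 95% Poisson interval was 21.7 to 24.5 CPM in roX1 mutant replicate 4 and at most 0.0785 CPM in replicate 3. By genotype, the SD of DptB was highest among roX1 mutant libraries (4.46), followed by the roX2 mutant (1.82), wildtype (1.11) and the double mutant (0.57). For comparison, the median SD was 0.183 over 23 genes of the Imd pathway and 0.194 over 20 genes of the Toll pathway. It was 1.44 over 8 other antimicrobial peptides, 1.02 over 14 Bomanins and other short immune peptides and 0.905 over 7 lysozymes. Among the marker lists it ran from 0.493 for blood cells to 4.61 for cuticle and moult. A large spread was thus not particular to these 10 genes.

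roX1 mutant replicate 4 was also highest for other peptides of these pathways. Of 8 other antimicrobial peptide genes tested, 3 were highest there: Dro (8.80 CPM, the next library at 3.27 CPM), edin (5.77 CPM, next 0.917 CPM) and CecA2 (0.588 CPM, next 0.142 CPM). Of 14 Bomanins and other short immune peptides, Toll targets for the most part, 7 were highest there, among them BomS3 (4.61 CPM, next 1.499 CPM) and BomS1 (1.81 CPM, next 0.198 CPM). Of the signalling genes, 2 of 23 in the Imd pathway and 0 of 20 in the Toll pathway were highest in this library. It had the lowest depth of the 13, with 45620194 counts, and lay on the low side of the first component, with 28.1 CPM of moult genes. Its sums of fat body (9168 CPM) and blood cell markers (1593 CPM) were the second highest and its midgut sum (918 CPM) the second lowest of the 13. Their part in its peptide levels was not tested.

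Across the 13 libraries, the levels of 13 of the 45 pairs of peptide genes were correlated. All 45 pairs had a positive Pearson correlation of log2 CPM, with a median r of 0.57, and these 13 passed a two-sided permutation test (100000 permutations) after adjustment over the 45 pairs. DptA and DptB were the closest pair (r = 0.90, permutation p = 5e-05, adjusted p = 0.00225, Spearman rho = 0.91, permutation p = 8e-05). Without the 2 libraries farthest from the median of DptA the r was 0.81, within genotypes 0.89, and on the low side of the first component 0.90. DptB and AttC had r = 0.84 (permutation p = 0.00021, adjusted p = 0.00472, rho = 0.75), and AttD and Mtk had r = 0.81 (permutation p = 0.00079, adjusted p = 0.00889, rho = 0.77). Drs and Def passed with no other gene: their highest r were 0.56 (Drs and CecA1, adjusted p = 0.0860, rho = 0.59) and 0.48 (AttA and Def, adjusted p = 0.152, rho = 0.35). By Spearman's rho 10 pairs passed, and by deviations from the genotype means 15. Drs and CecA1 were among these 15 (r = 0.80, adjusted p = 0.00825), and Def was in none of them. Without roX1 mutant replicate 4 the median r fell to 0.38, while DptA and DptB kept 0.83 and AttD and Mtk 0.81. The values of a pair come from the same libraries and share their depth and their pool of larvae.

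**Figure D3:**
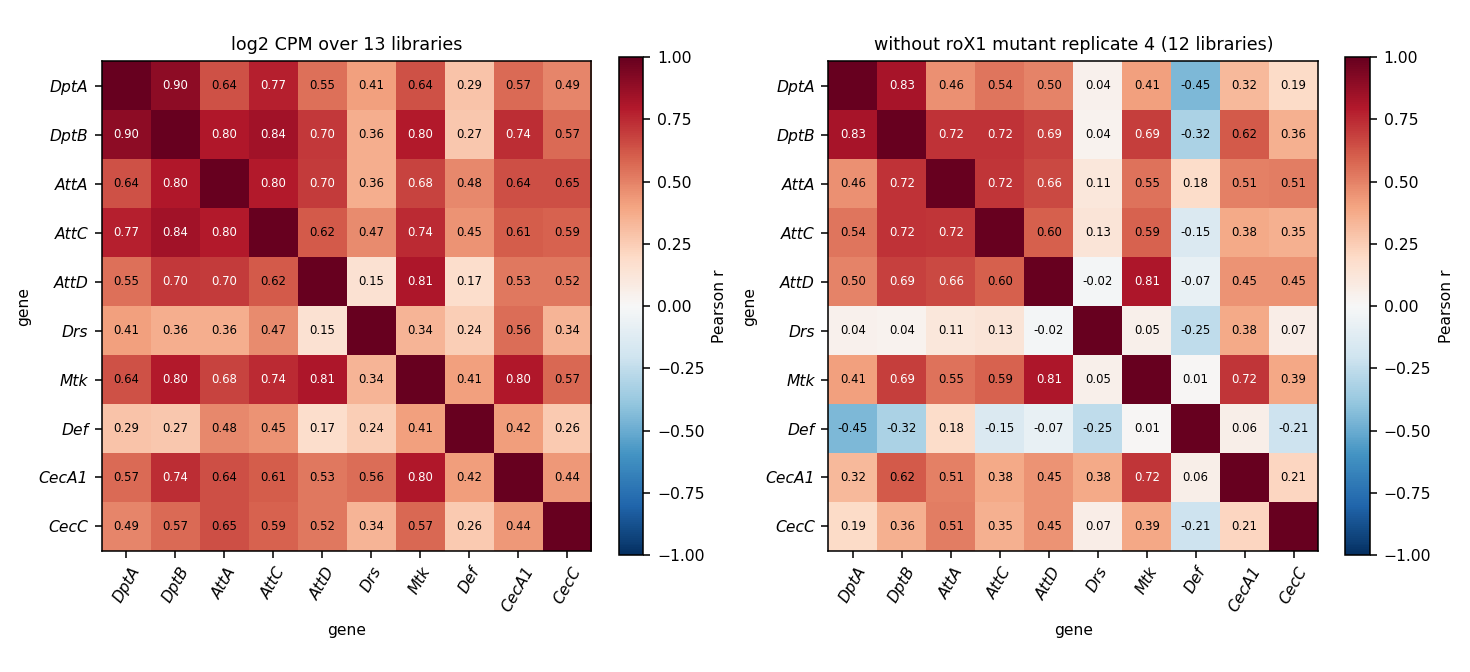
Pearson r of log2 CPM between the 10 genes over all 13 libraries (left) and over the 12 libraries without roX1 mutant replicate 4 (right). Each cell is a pair of genes, with r printed in it and coloured from -1 to 1. On the left all 45 pairs are positive. On the right most cells of Drs and Def are near or below 0, with the highest at 0.38 for Drs and CecA1. DptA and DptB keep an r of 0.83.

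Among 10130 other genes with a mean of at least 1 CPM, those most like DptA over the 13 libraries were mt:ATPase8 (r = 0.79), Septin5 (0.73), Acbp4 (0.71), PRL-1 (0.70) and Tsp96F (0.67). mt:ATPase8, a mitochondrial gene, was highest in roX1 mutant replicate 4 (10.4 CPM, mean 2.87 CPM). Those most like Drs were Plp (r = 0.69), MEP-1 (0.67), S6k (0.66), CG13185 (0.66) and larp (0.65), of which all but MEP-1 were highest in roX2 mutant replicate 3. These 10 are the highest of many values and are given as a description. The search left out the 10 peptide genes and every gene with a mean under 1 CPM, so DptB (r = 0.90 with DptA) could not appear.

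Among the other immune peptides, Drsl2 and BomS4 differed between genotypes. Drsl2, a Drosomycin-like gene on 3L, had 0.0124, 0 and 0.0166 CPM in wildtype. The roX2 mutant libraries had 1.51, 0.857 and 1.04 CPM, the roX1 mutant at most 0.0632 CPM and the double mutant at most 0.0172 CPM. It rose in the roX2 mutant by 6.62 on the log2 scale (standard error 0.92, adjusted p = 0.00835), the only one of 8 other antimicrobial peptides called in any mutant. The wildtype libraries held 2 counts of it in all and the roX2 mutant libraries 189, a ratio of 121 per library size (exact 95% interval 33.1 to 1008, counting error only). The adjusted p was 0.0562 to 0.0609 when any wildtype library was left out. BomS4, a Bomanin on 2R, had 2.51, 0.997 and 0.927 CPM in wildtype and at most 0.164 CPM in each of the 10 mutant libraries. BomS4 fell by 4.28 with the loss of roX1 (standard error 0.64, adjusted p = 0.00870), by 4.13 with that of roX2 (standard error 0.70, adjusted p = 0.0327) and by 5.14 with that of both (standard error 0.75, adjusted p = 0.00350). The 3 comparisons share the wildtype libraries. On the low side of the first component BomS4 was not called in the roX1 mutant (-3.84, adjusted p = 0.0533) or the roX2 mutant (-3.26, adjusted p = 0.129). The roX2 mutant call was also lost in a fit of the 2 genotypes alone (adjusted p = 0.3501) and on leaving out any of 10 of the 13 libraries. It was 1 of 14 genes called in this list in each mutant, and its neighbours BomS1, BomS2 and BomS3 were not called.

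In the Imd pathway, the genes called lower in the roX1 roX2 mutant were X-linked. Dredd, the caspase that cleaves Relish, fell by 0.66 (standard error 0.12, adjusted p = 0.00811), the kinase gene Tak1 by 0.66 (standard error 0.10, adjusted p = 0.00380) and the intracellular receptor gene PGRP-LE by 0.56 (standard error 0.14, adjusted p = 0.0287). These are 3 of the 4 X-linked genes of the list, against 27.0% of 2142 X-linked genes tested that were called lower, with a median of -0.55. None of 19 autosomal genes was called lower and Fadd, the adaptor between imd and Dredd, rose by 0.66 (standard error 0.16, adjusted p = 0.0285), against 1.77% lower and 3.92% higher of the genes on 2L, 2R, 3L and 3R. The calls of PGRP-LE and Fadd were each lost on leaving out any of 5 of the 13 libraries. Rel was at 0.19 (standard error 0.16), imd at 0.04 (0.16) and the receptor gene PGRP-LC at -0.29 (0.11), and none was called in any mutant.

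In the roX1 mutant PGRP-SC2, which encodes an amidase that breaks down peptidoglycan and so dampens the Imd pathway, fell by 2.65 (standard error 0.56, adjusted p = 0.0444). It had 94.1, 20.6 and 19.5 CPM in wildtype and 7.05, 7.36, 7.19 and 6.88 CPM in the roX1 mutant, which do not overlap. Without wildtype replicate 1 the estimate was -1.49 (adjusted p = 0.0921), with the replicate number as a block it was -2.26 (adjusted p = 0.0725), and leaving out any of 11 of the 13 libraries lost the call. The same wildtype library was the highest of all for the Imd brakes pirk (20.7 CPM, 5.01 and 4.79 CPM in the other wildtype libraries) and PGRP-LB (31.0 CPM, 13.3 and 14.97 CPM). The double mutant had estimates for pirk of -1.66 (standard error 0.54, adjusted p = 0.0788) and for PGRP-LB of -0.90 (standard error 0.30, adjusted p = 0.0875). DESeq2 called pirk (adjusted p = 0.0110) and PGRP-LB (adjusted p = 0.0250) lower in the double mutant, and pirk in the roX1 mutant (adjusted p = 0.0351). Without wildtype replicate 3 edgeR also called PGRP-LB in the double mutant (adjusted p = 0.0483). Midgut markers summed to 4312 CPM in wildtype replicate 1 and to 954 and 1113 CPM in replicates 3 and 4, and their part in these levels was not tested.

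In the Toll pathway, SPE was the only gene of the list called higher in a mutant. It encodes the protease that cuts Spätzle, and it had 1.11, 0.896 and 1.39 CPM in wildtype and 7.32, 7.004, 8.27 and 6.85 CPM in the roX1 mutant. SPE rose by 2.70 in roX1 mutant larvae on the log2 scale (standard error 0.27, adjusted p = 0.000582) and was called under each of 21 alternatives. It had 2.53, 1.61 and 2.43 CPM in the roX2 mutant (adjusted p = 0.244) and 0.866, 1.62 and 1.44 CPM in the roX1 roX2 mutant, where the log2 fold change was 0.20 (standard error 0.26). In the roX1 roX2 mutant 3 of 4 X-linked genes of the list fell: PGRP-SA, a receptor for Gram-positive peptidoglycan (by 2.02, standard error 0.39, adjusted p = 0.0111), and the protease genes Hayan (by 1.17, standard error 0.15, adjusted p = 0.00164) and psh (by 0.89, standard error 0.23, adjusted p = 0.0327). The call of psh was lost on leaving out any of 5 libraries. Of all X-linked genes tested 27.0% were called lower, with a median of -0.55. None of 16 autosomal genes was called in this mutant, against 1.77% lower and 3.92% higher of the genes on the major autosome arms. The ligand gene spz had -0.51 (standard error 0.17, adjusted p = 0.0812), the receptor gene Tl 0.00 (0.15), Dif -0.06 (0.17) and cact, which encodes the inhibitor that holds Dif, -0.16 (0.10). Under 4 alternatives spz was called lower. DESeq2 (adjusted p = 0.0329) and TMM over the major autosome arms (0.04999) gave this call. So did the low side of the first component (0.0134) and the fit without wildtype replicate 1 (0.0456).

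**Figure D4:**
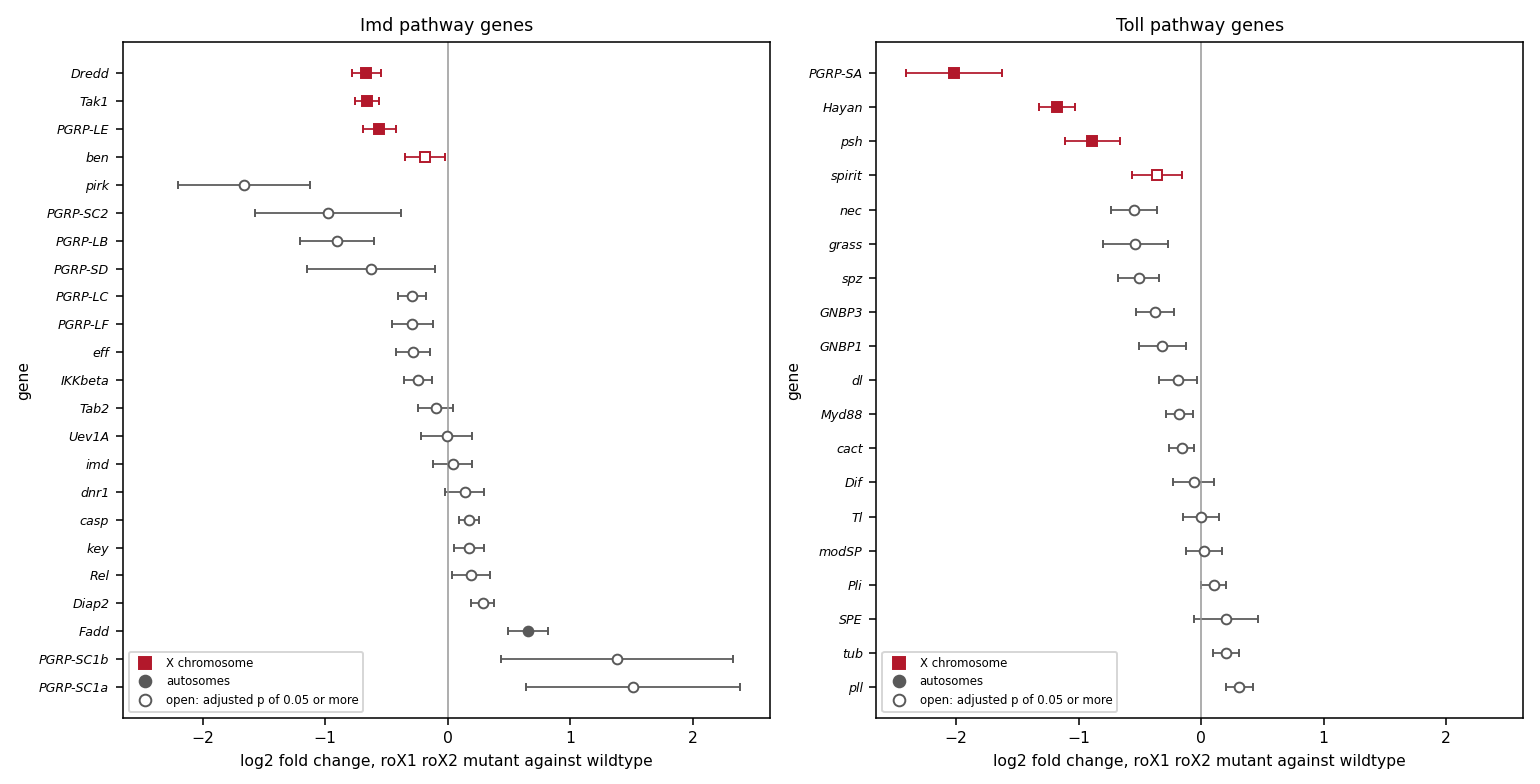
Log2 fold changes in the roX1 roX2 mutant against wildtype (x axis) of the Imd and Toll pathway genes tested, with bars of 1 standard error. Squares are X-linked and circles autosomal genes, filled where the adjusted p is under 0.05, and PGRP-SD, which is in both lists, is drawn with the Imd genes. Of the 4 X-linked genes in each pathway, 3 are called lower, and Fadd is the only autosomal gene called.

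**Figure D5:**
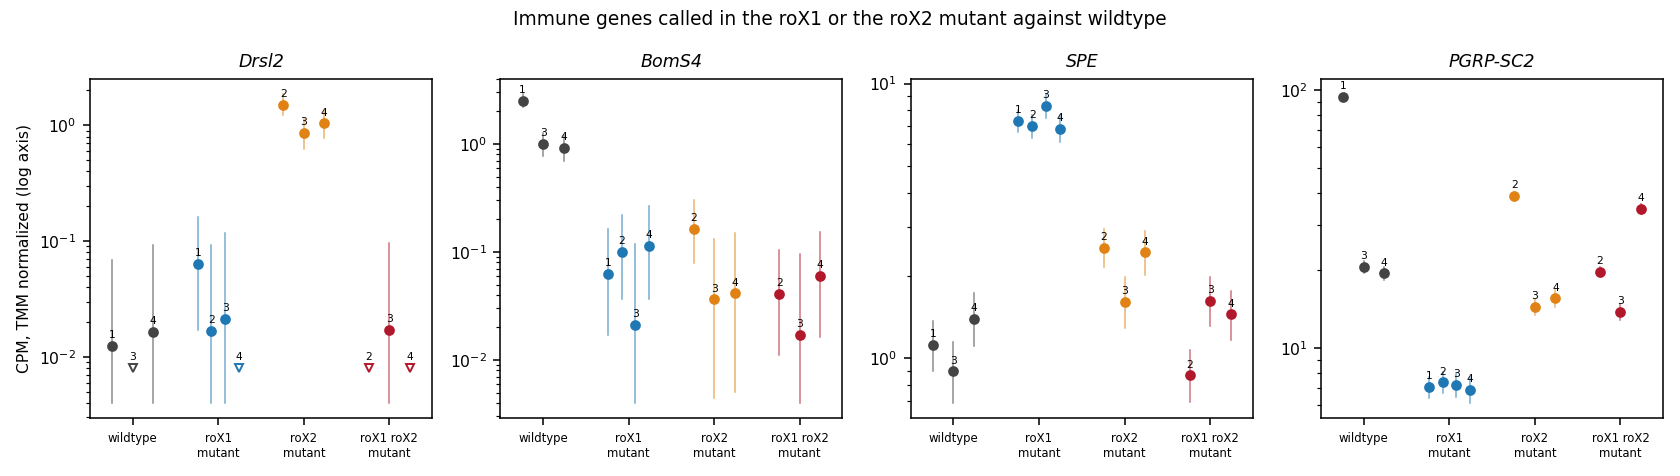
Levels of Drsl2, BomS4, SPE and PGRP-SC2 by genotype, in TMM-normalized CPM on a log axis that differs between the panels. Points are libraries with their replicate numbers, bars exact 95% Poisson intervals, and open triangles libraries without a count. Drsl2 is at 0.857 CPM or more only in the roX2 mutant, SPE is at 6.85 CPM or more only in the roX1 mutant, and BomS4 is at 0.927 CPM or more only in wildtype.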

How the data were processed

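Polyadenylated RNA of whole male larvae was sequenced in 13 libraries. The authors mapped paired-end reads to genome version 6.09 with STAR 2.5.1b, counted them on genes with HTSeq 0.6.1 at default settings and deposited raw counts, 1 table per library. The kit does not mark strand, and the strand option and whether a count stands for a read or a pair are not given in the sources used here. Summary lines for unassigned reads (10.3% to 23.8% of a library) were left out. Of 17476 identifiers, 17229 matched the Ensembl BDGP6.54 annotation.

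The 13975 genes that reached a sum of 20 counts were tested in edgeR 4.0.16 under R 4.3.3 (TMM, quasi-likelihood test, 4 genotypes in one fit, Benjamini-Hochberg within a comparison, threshold 0.05). TPM used summed exon length. The standard error is the log2 fold change divided by the root of F. Correlations used scipy 1.17.1 and numpy 2.4.6. The fits were tested on simulated data with the same dispersion for every gene and changes only in genes with many counts. That simulation does not show how they behave for the peptide genes, whose counts are low and whose spread is large. Replicates differed by more than sampling noise (chi-square per degree of freedom of 43.7 or more).

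The members, gene lists and tests were chosen with earlier results of these data known. All 10 genes are named, of other lists those called against wildtype (at most 8 by size), and Rel, imd, PGRP-LC, pirk, PGRP-LB, spz, Tl, Dif and cact always. Same-numbered wildtype and roX1 mutant libraries deviated together (r of 0.42 to 0.59 across genes), as did those of the roX2 and roX1 roX2 mutants (0.17 to 0.28). For the other pairs of genotypes r ran from -0.49 to 0.23, so same-numbered libraries did not deviate together in all genotypes. A replicate block was an alternative. Other alternatives were DESeq2 1.42.0, other filters, TMM or centring over the major autosome arms, the 2 genotypes alone, the low side of the first component and each library left out. Those for the comparisons between mutants, the interaction, TPM, correlations and mean levels without roX1 mutant replicate 4, and the CecA1 bound without a wildtype library were chosen after seeing the data. No sequence of the genes is shown.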

Additional observations from a re-analysis of the deposited data

Results flagged for a closer look

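Among the 4 roX1 mutant libraries, replicate 4 stood apart from the others by Dixon's test (gap over range above the 95% critical value) in 5 of the 10 peptide genes: DptA (6.94 CPM), DptB (23.1 CPM), AttC (20.3 CPM), Mtk (7.24 CPM) and CecA1 (0.294 CPM). Of 23 other named genes 1 was set apart, PGRP-LC, with its lowest roX1 mutant level in replicate 1 (43.5 CPM, the others at 45.3 to 45.6 CPM). The test was run on CPM and not on a log scale, where the libraries lie differently. For DptB the log2 CPM was 1.68, -3.60, -4.96 and 4.53 in replicates 1 to 4. A rate of about 1 in 20 groups set apart by chance holds only for normally distributed levels, which was not tested. The peptide genes are also not independent of each other.

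The effect of losing both roX RNAs departed from the sum of the single effects in 6 of the named genes, none of them among the 10 peptide genes (edgeR interaction term, Benjamini-Hochberg adjustment). Of all genes tested 3.01% passed. These 6 were named for a call against wildtype in the same data, so their number cannot be set against that share. Of the listed genes without such a call, casp (0.62, adjusted p = 0.0229), Dso1 (-1.96, adjusted p = 0.0356) and PPO1 (-2.79, adjusted p = 0.0297) also passed. The interaction was -3.44 for SPE (standard error 0.37, adjusted p = 0.00129), -8.75 for Drsl2 (standard error 1.47, adjusted p = 0.0140), -3.17 for PGRP-SA (standard error 0.53, adjusted p = 0.0140), -0.85 for Hayan (standard error 0.20, adjusted p = 0.0463) and -1.44 for psh (standard error 0.31, adjusted p = 0.0336). For Sgs5 it was 14.74 (standard error 2.30, adjusted p = 0.0196), which rests on genotypes with almost no counts. The value of Drsl2 does too, with 2 counts in wildtype, 6 in the roX1 mutant and 1 in the double mutant. For SPE and Drsl2 the rise in one single mutant was not seen in the roX1 roX2 mutant, where they were at 0.20 and -0.79 against wildtype.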

How the results depend on the processing

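The counts of 0 in the roX1 mutant and in the roX2 mutant against wildtype, and in the interaction, were the same under every alternative run. In the roX1 roX2 mutant against wildtype the count was 1 with DESeq2, 1 on the low side of the first component and 2 in a fit of only these genotypes. Against the roX1 mutant it was 6 with DESeq2, 2 with a mean of at least 10 counts, 5 on the low side, 0 with only these genotypes, and 0 to 3 with a library left out, and the roX2 mutant against the roX1 mutant had 1 with DESeq2. The low side holds only replicates 3 and 4 of wildtype and of the roX1 mutant. With the replicate block AttC was no longer called against the roX1 mutant (0 genes, -3.92, adjusted p = 0.210), where same-numbered libraries did not deviate together (r of 0.01 to 0.08). The replicate block turned the sign of 5 values, none called: DptA in the roX1 mutant (-0.45), AttA (0.11), imd (0.029) and Tl (0.0074) in the roX2 mutant and Dif in the roX1 roX2 mutant (0.071). It ended the calls of TotA and psh in the roX1 roX2 mutant and of PGRP-SC2 in the roX1 mutant. The low side of the first component turned the sign of uncalled values of Mtk (0.20), PGRP-LB (0.0094) and Tl (-0.028) in the roX1 mutant, Rel (-0.040) and imd (0.11) in the roX2 mutant, and Tl (-0.069) and Dif (0.092) in the roX1 roX2 mutant. TMM over the autosome arms did so for imd in the roX2 mutant (0.0014) and for imd (-0.042) and Tl (-0.083) in the roX1 roX2 mutant, and centring for Rel in the roX2 mutant (-0.081) and imd in the roX1 mutant (-0.0071). Centring shifts all genes by -0.11, -0.14 and 0.03.

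With a library left out, the range of values in the roX1 mutant was -2.78 to 3.10 for DptA, -0.72 to 2.38 for DptB, -0.15 to 0.97 for AttA, -0.43 to 0.84 for Drs, -2.31 to 0.41 for Mtk, -2.96 to 0.32 for CecA1, -0.52 to 1.02 for CecC, -0.47 to 0.24 for PGRP-LB and -0.055 to 0.018 for cact. In the roX2 mutant it was -0.43 to 0.35 for AttA, -0.26 to 1.10 for Drs, -0.056 to 0.20 for Rel, -0.19 to 0.090 for imd and -0.092 to 0.094 for Tl. In the roX1 roX2 mutant it was -0.019 to 0.38 for Drs, -0.038 to 0.15 for imd, -0.061 to 0.063 for Tl and -0.14 to 0.10 for Dif. In TPM the log2 ratio of the mean levels of Drs in the roX1 roX2 mutant was 0.46, and 3 genes in place of 5 lay below all wildtype libraries. The cause of these changes was not tested. Depth limits Def, CecA1 and CecC most, at 0 to 22 counts per library.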

Other observations

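Lists outside the 2 pathways gave few calls. Of all genes tested against wildtype, 9.08% were called after loss of both RNAs, 1.32% after loss of roX1 alone and 0.351% after loss of roX2 alone. Few calls in lists of 4 to 12 genes do not set these lists apart from such shares, and a difference was not tested. Among 4 Turandot genes, secreted stress peptides, TotA rose by 2.49 in the roX1 roX2 mutant (standard error 0.63, adjusted p = 0.0323, edgeR), from 0.0578 to 0.0994 CPM in wildtype to 0.301 to 0.591 CPM, and the call was lost with any of 5 libraries left out. The median estimate of the 4 was -0.12, with TotC (-0.72) and TotM (-0.85) below 0 and TotE (0.49) above it. Among 10 blood cell markers Pxn, which encodes an extracellular matrix peroxidase, fell by 1.33 in the roX1 roX2 mutant (standard error 0.34, adjusted p = 0.0322, edgeR), from 39.7 to 78.1 CPM to 24.9 to 25.9 CPM, a call lost with any of 5 libraries left out. Among 9 salivary gland markers Sgs5, which encodes a glue protein, had 5.65, 5.36 and 7.18 CPM in the roX1 roX2 mutant and at most 0.198 CPM in the other libraries (adjusted p = 0.0130, edgeR). The median estimate of the 9 was -0.45. Sgs1, Sgs3, Sgs4, Sgs7, Sgs8 and ng2 had estimates below 0, while ng1 (2.38) and ng3 (2.72) were above 0, and none of these was called. No gene of 7 lysozymes, 8 fat body markers, 10 midgut markers or 12 genes of cuticle and moult was called in any mutant against wildtype.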
